A study of Mus musculus with 4 samples.

Results

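A set of 40 genes of the unfolded protein response and of amino acid stress were followed in primary mouse neural stem cells with and without Mettl4. They were taken by name from the read count files, and all 40 were found among the 55414 genes listed. Of these, 23 form the ATF4 arm, with its transcription factors, stress effectors, enzymes of amino acid and folate metabolism and amino acid transporters. The remaining 17 form the endoplasmic reticulum (ER) arm of chaperones, folding factors, degradation genes, sensors and Xbp1. A low-count filter left 19912 genes for testing, with 22 members of the ATF4 arm and all 17 of the ER arm among them. Nupr1, a small chromatin protein induced by stress, fell under the filter with 7 and 4 counts in the wild type libraries and 2 and 8 in the knockout libraries.

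Cells meet protein folding stress and amino acid shortage with partly shared programmes. Kinases that sense either condition, among them PERK (encoded by Eif2ak3) at the ER membrane, phosphorylate the initiation factor eIF2, which lowers protein synthesis in general and raises translation of the Atf4 mRNA. ATF4 protein then induces genes for amino acid synthesis, amino acid import and tRNA charging, while the sensors IRE1 and ATF6 induce ER chaperones and degradation genes. Since ATF4 is controlled largely by translation and XBP1 by splicing of its mRNA, gene counts show the RNA level of both and not their activity.

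RNA was sequenced from 2 wild type and 2 Mettl4 knockout libraries. Mettl4 encodes an adenosine methyltransferase. In all 4, cells from the cortex of E14.5 mouse embryos had been expanded as neurospheres and plated as a monolayer on poly-D-lysine, in medium holding 20 ng/ml EGF and 10 ng/ml basic FGF. How the knockout was made, which part of Mettl4 it removes, and whether the libraries of a genotype came from separate embryos or cultures are points not given in the sources used here. The p-values therefore cover only how far these libraries differ, and part of that may be technical.

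Library totals ran from 12812064 to 19310668 counts. Mettl4 stood at 63.8 and 66.6 CPM (counts relative to library size, scaled by the TMM method) in the wild type and at 15.6 and 17.6 CPM in the knockout, with a log2 fold change of -1.97 (SE 0.17, edgeR adjusted p = 0.0051). It was the only gene called among all tested. The 10 markers of neural stem cells and radial glia summed to between 5224 and 6273 CPM in each library. Both knockout libraries stood below both wild type libraries for 5 of them (Slc1a3, Hes1, Vim, Pax6 and Prom1) and above for 0. Over all genes tested these shares were 14.9% and 12.5%. Of the 10 fold changes 4 were positive and 6 negative. Among 6 neuron markers, Map2 alone gave between 999.7 and 1335 CPM and Stmn2 had at most 5 counts. Snap25, Rbfox3, Tubb3 and Dcx lay between 1.51 and 6.83 CPM, with log2 fold changes of -0.59, -0.37, 0.29 and 0.69. The 6 mesenchyme markers together stayed between 0.985 and 2.07 CPM and 6 microglia markers between 6.40 and 7.44 CPM. Markers of endothelium summed to between 2.34 and 3.35 CPM and those of blood to between 8.48 and 11.5 CPM. Among 5 blood markers 4 fold changes were positive and 1 negative, with Hba-a2 at 1.38 (edgeR unadjusted p = 0.044). The 6 markers of the oligodendrocyte lineage summed to 1413 and 1277 CPM in the wild type and 1447 and 1392 CPM in the knockout, with all 6 fold changes above 0 and an unadjusted p of 0.00574 for Sox10 (log2 fold change 1.57). The 5 astrocyte markers summed to 287 and 369 CPM against 412 and 371 CPM. Aldh1l1 alone stood at 110 and 158 CPM against 247 and 198 CPM, a log2 fold change of 0.73 (edgeR unadjusted p = 0.00374). Aqp4 had 0.13, and S100b, Gfap and Aldoc had -0.74, -0.86 and -0.24. The median of the 5 was -0.24, with 2 positive and 3 negative. Both knockout libraries stood below both wild type libraries for 3 of them (S100b, Gfap and Aldoc) and above for 1 (Aldh1l1). No marker in these lists was called or at 0 in all libraries, and their part in the results was not tested. These are bulk samples, in which fewer cells of a type and less RNA per cell cannot be told apart.

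Promoters are shown for members that carry the letters of a known stress element and on which the values below turn. RefSeq windows from 250 bases before to 50 after the start site, in build GRCm38.p6, were found for 36 of the 40 members, while the counts themselves were made on GRCm39. Both strands were searched for TGATGNAA, the CARE letters bound by ATF4 with C/EBP factors; for the ER stress element (ERSE), CCAAT and CCACG with 9 bases between; for ERSE-II, ATTGG and CCACG with 1 base between; and for the XBP1 element TGACGTGG. The first part of ERSE-II is the reverse complement of that of ERSE. The 250 bases before the start are printed 5′ to 3′ on the strand of the gene, capitals mark the fixed letters of a match, and for Trib3, whose match lies after the start, 30 bases around it are printed.
Trib3, chr2:152344028-152344057, minus strand: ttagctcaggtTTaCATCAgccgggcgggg
Chac1, chr2:119350992-119351241, plus strand: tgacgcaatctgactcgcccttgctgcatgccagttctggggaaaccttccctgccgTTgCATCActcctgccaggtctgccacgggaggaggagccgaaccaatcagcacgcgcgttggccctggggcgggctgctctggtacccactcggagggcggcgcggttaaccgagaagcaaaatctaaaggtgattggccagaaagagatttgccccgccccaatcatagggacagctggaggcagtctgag
Pycr1, chr11:120643749-120643998, minus strand: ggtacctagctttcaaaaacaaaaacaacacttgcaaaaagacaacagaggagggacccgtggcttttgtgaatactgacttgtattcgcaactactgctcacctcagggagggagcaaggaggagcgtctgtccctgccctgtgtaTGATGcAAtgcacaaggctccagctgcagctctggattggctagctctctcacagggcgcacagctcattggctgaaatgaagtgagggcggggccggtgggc
Asns, chr6:7693210-7693459, minus strand: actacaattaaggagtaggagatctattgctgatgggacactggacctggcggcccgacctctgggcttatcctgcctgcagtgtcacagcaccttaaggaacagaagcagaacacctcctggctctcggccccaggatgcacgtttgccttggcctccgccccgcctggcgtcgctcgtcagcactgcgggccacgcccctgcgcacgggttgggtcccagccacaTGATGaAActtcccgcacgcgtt
Hspa5, chr2:34771840-34772089, plus strand: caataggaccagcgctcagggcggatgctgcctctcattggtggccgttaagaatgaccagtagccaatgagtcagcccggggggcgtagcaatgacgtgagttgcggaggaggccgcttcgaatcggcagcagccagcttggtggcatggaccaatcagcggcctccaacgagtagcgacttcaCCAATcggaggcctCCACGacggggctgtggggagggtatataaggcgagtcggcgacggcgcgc
Herpud1, chr8:94386179-94386428, plus strand: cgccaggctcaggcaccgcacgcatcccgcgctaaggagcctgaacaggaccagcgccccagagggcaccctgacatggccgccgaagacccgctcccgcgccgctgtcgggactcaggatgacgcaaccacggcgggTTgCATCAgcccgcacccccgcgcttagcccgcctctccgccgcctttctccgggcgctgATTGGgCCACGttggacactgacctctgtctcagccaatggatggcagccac

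CARE letters were present in the windows of 7 of 21 ATF4 arm genes (Atf3, Nupr1, Trib3, Chac1, Asns, Pycr1 and Slc7a11) and of 1 of 15 ER arm genes (Herpud1). Among all 32851 windows, 3.97% held them. In Trib3 the match ran from position 15 to 22 after the start on the minus strand of the gene, in Chac1 from -193 to -186, in Pycr1 from -103 to -96 and in Asns from -23 to -16. ERSE letters were present in 6 of the 15 ER arm genes (Hspa5, Hsp90b1, Calr, Pdia6, Dnajc3 and Creld2), in 0 of the 21 ATF4 arm genes and in 0.119% of all windows. Hspa5, which encodes the chaperone BiP, had its match from -65 to -47. Herpud1 alone held ERSE-II letters, which 0.0365% of windows held, and no member held TGACGTGG, present in 0.676% of windows. A match describes letters in a window and is no evidence of binding in these cells.

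Neither arm had a member that passed the test between genotypes. In the ATF4 arm 0 of 22 tested members were called, and in the ER arm 0 of 17, against 0.00502% of all genes tested (Mettl4 alone), by edgeR's quasi-likelihood test with Benjamini-Hochberg adjustment. DESeq2 and limma-voom also called 0 members of either arm. At an unadjusted p under 0.05, 2 members of the ATF4 arm were higher in the knockout (Trib3 and Chac1) and 0 lower, where 1.15% of all genes were higher and 1.62% lower. The ER arm had 0 members at that level in either direction by all 3 tools, and DESeq2 and limma-voom each gave 2 in the ATF4 arm. Trib3 passed the low-count filter only through the knockout libraries, where it was high, so its p-value is not separate support. The adjusted p of every tested member was 1.00, so the fold changes that follow describe these 4 libraries.

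**Figure D1:**
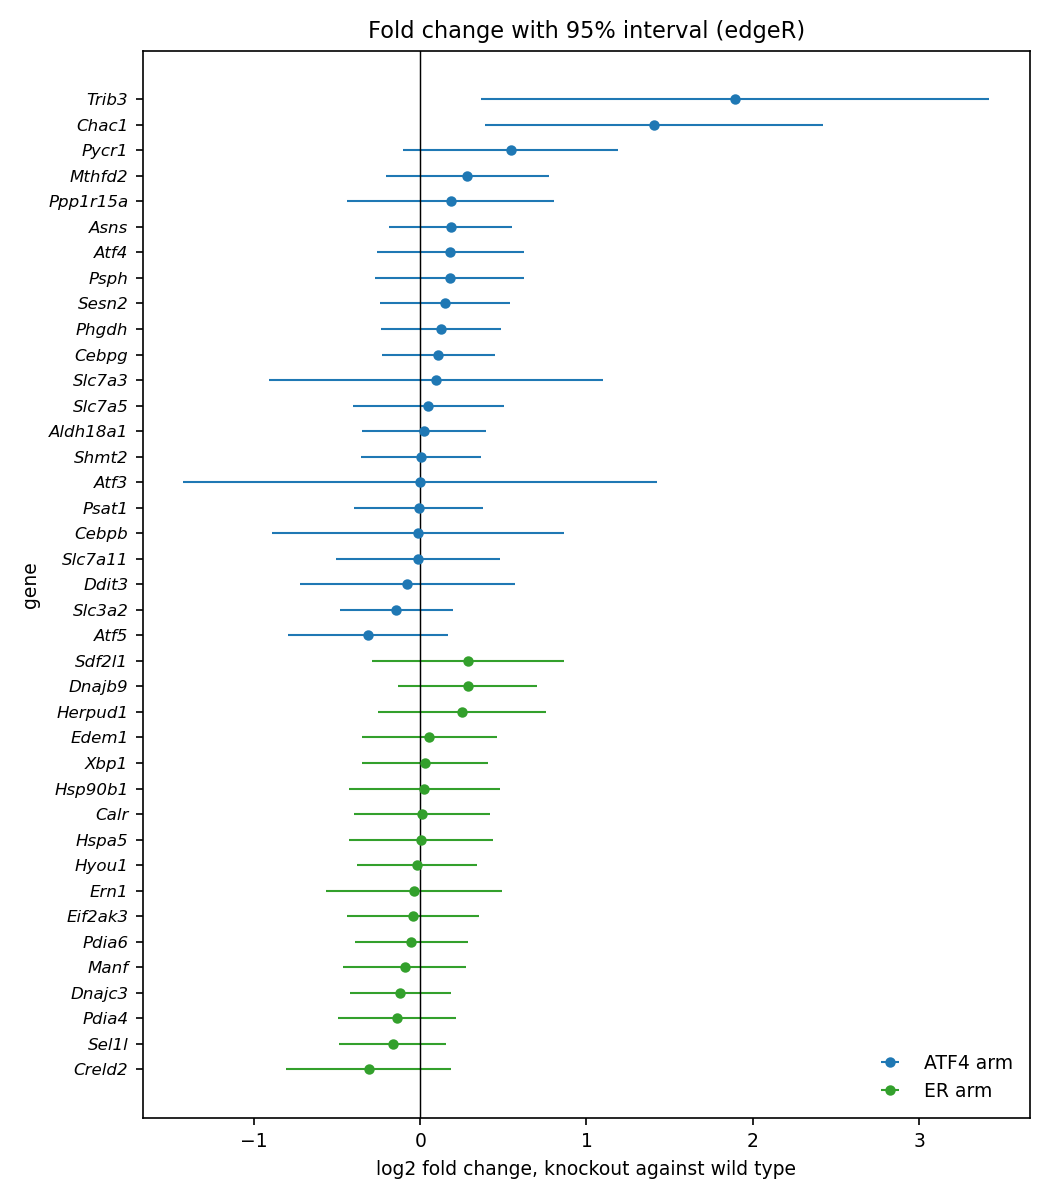
Log2 fold change of knockout against wild type (horizontal axis) for the 39 tested members (vertical axis), with 95% intervals from edgeR as bars. Of the ATF4 arm in blue, Trib3 and Chac1 lie above 0 with their whole intervals, and each interval of the ER arm in green includes 0.

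Fold changes in the ATF4 arm lay above 0 more often than below, and those of the ER arm were balanced; the difference between arms was not tested. In the ATF4 arm, 15 of 22 log2 fold changes were positive and 7 were not, the median was 0.10 and the range ran from -0.32 to 1.89. In the ER arm the balance was 8 positive to 9 negative, the median was -0.02 and the values ran from -0.31 to 0.29. The median over all genes tested was -0.00 and 49.7% of them were positive. Both knockout libraries stood above both wild type libraries for 3 members of the ATF4 arm (Trib3, Chac1 and Pycr1) and 1 of the ER arm (Dnajb9), where 12.5% of all genes did so. They stood below both for 1 member of the ATF4 arm (Atf5) and 3 of the ER arm (Dnajc3, Creld2 and Sel1l), where 14.9% of all genes did so. As shares of the tested members these are 13.6% above and 4.55% below in the ATF4 arm and 5.88% above and 17.6% below in the ER arm, none of them far above the share of all genes.

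Trib3 and Chac1, stress effectors downstream of ATF4, had the 2 largest fold changes of the set. Trib3, a pseudokinase that binds ATF4 and the kinase AKT, stood at 0.302 and 0.244 CPM in the wild type and at 0.633 and 1.42 CPM in the knockout. Behind those levels were 4 counts in each wild type library and 12 and 26 in the knockout libraries. That total was the lowest among the tested members. Trib3 passed the low-count filter only through the knockout libraries, so the gap between its groups is partly set by that filter. Its groups did not overlap, the second knockout library lay far above the first, and the log2 fold change was 1.89 (SE 0.69, 95% interval 0.36 to 3.42, unadjusted p = 0.0201). Chac1, an enzyme that breaks down glutathione, stood at 1.13 and 0.793 CPM in the wild type and at 1.74 and 3.34 CPM in the knockout, from 15, 13, 33 and 61 counts. The same order of libraries recurred, with a log2 fold change of 1.41 (SE 0.46, 95% interval 0.39 to 2.42, unadjusted p = 0.0115). Without the second knockout library the log2 fold changes were 1.20 (unadjusted p = 0.199) for Trib3 and 0.87 (unadjusted p = 0.143) for Chac1.

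The other stress effectors lay closer together. Sesn2, a leucine sensor upstream of mTORC1, stood at 40.6 and 32.2 CPM in the wild type and at 41.8 and 38.8 CPM in the knockout. Ppp1r15a, which directs a phosphatase to eIF2, stood at 3.92 and 4.33 CPM in the wild type and at 5.22 and 4.16 CPM in the knockout. Both had overlapping groups, with log2 fold changes of 0.15 (SE 0.18) and 0.18 (SE 0.28). All 4 tested stress effectors had a positive fold change, where 49.7% of all genes did. Their median of 0.79 lies in the gap between Trib3 and Chac1 on one side and Sesn2 and Ppp1r15a on the other.

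**Figure D2:**
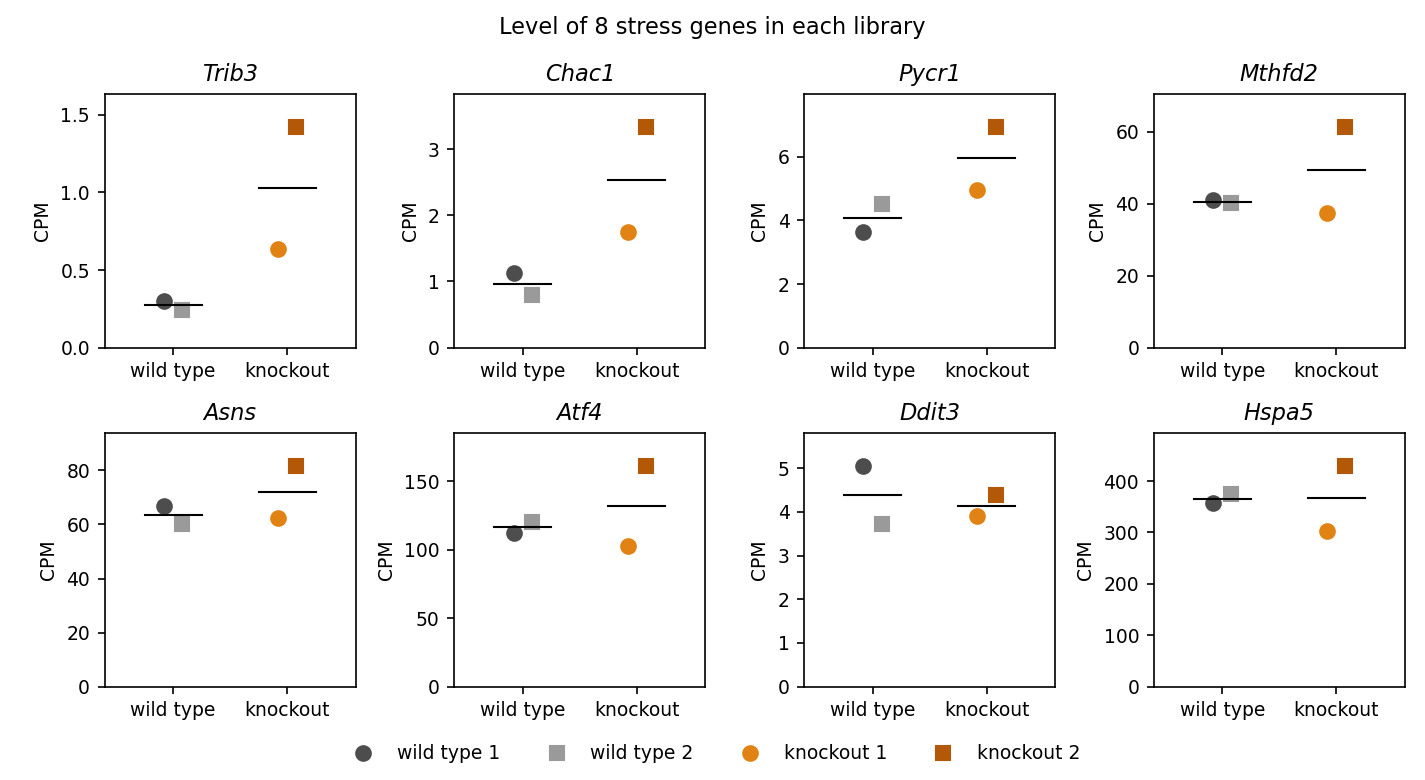
Level in CPM (vertical axis, linear and from 0) of 8 members in each library, by genotype (horizontal axis), with circles for replicate 1, squares for replicate 2 and a line at each group's mean. The second knockout library is the highest point for every gene but Ddit3, and the groups are apart for Trib3, Chac1 and Pycr1. The 8 genes were picked for display. Over the tested ATF4 arm the second knockout library was above both wild type libraries for 11 of 22 members.

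The transcription factors at the head of the arm showed no shared direction. Atf4 itself stood at 112 and 120 CPM in the wild type, 116 ± 5.74 (SD, n = 2), and at 103 and 161 CPM in the knockout, 132 ± 41.3 (SD, n = 2). The knockout libraries lay on either side of both wild type libraries, and the log2 fold change of 0.18 (SE 0.20) was -0.18 without the second knockout library and 0.47 without the first. Ddit3, which encodes the pro-apoptotic factor CHOP, stood at 5.06 and 3.72 CPM in the wild type and at 3.90 and 4.38 CPM in the knockout, with a log2 fold change of -0.08 (SE 0.29). The wild type values of Ddit3 enclosed those of the knockout. A separate gene identifier of the same symbol shares 105 bases, 6.1% of its exons, and had 0 counts in all libraries.

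Atf5, an ATF4 target and a factor of neural progenitors, stood at 23.9 and 17.3 CPM in the wild type and at 16.8 and 16.3 CPM in the knockout. It was the only ATF4 arm member with both knockout libraries below both wild type libraries, by a narrow margin to the second wild type library, and its log2 fold change was -0.32 (SE 0.22). Without the first wild type library it was -0.063, and without the second it was -0.52. Cebpg, a partner of ATF4, stood at 46.9 and 49.1 CPM in the wild type and at 48.6 and 55.0 CPM in the knockout, with a log2 fold change of 0.11 (SE 0.15). Cebpb and Atf3, bZIP factors induced by stress, had log2 fold changes of -0.01 (SE 0.40) and -0.00 (SE 0.64) and overlapping groups. Cebpb shares 312 exon bases, 20.7% of its own, with Tmem189 on the opposite strand, and Atf5 shares 4.1% with Nup62, so that reads of such pairs cannot be told apart unless strand was used in counting. Of the 6 factors 2 had positive and 4 negative fold changes, with a median of -0.01.

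Enzymes of serine, asparagine, proline and folate metabolism were for the most part highest in the second knockout library. Pycr1, which completes proline synthesis, stood at 3.62 and 4.51 CPM in the wild type, 4.07 ± 0.629 (SD, n = 2), and at 4.96 and 6.95 CPM in the knockout, 5.96 ± 1.41 (SD, n = 2). Its groups did not overlap and the log2 fold change was 0.54 (SE 0.29, unadjusted p = 0.091). Without the second knockout library it was 0.28 (unadjusted p = 0.44) and without the first it was 0.77. Mthfd2, a mitochondrial folate enzyme, stood at 40.9 and 40.2 CPM in the wild type and at 37.3 and 61.4 CPM in the knockout. Here the first knockout library was the lowest of the 4 and the second the highest, and the log2 fold change was 0.28 (SE 0.22). Asns, asparagine synthetase, stood at 66.8 and 60.2 CPM in the wild type and at 62.4 and 81.8 CPM in the knockout. Its second knockout library was also the highest, but its first lay between the wild type libraries, and the log2 fold change was 0.18 (SE 0.17).

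The serine pathway did not separate the genotypes. Phgdh, its first enzyme, stood at 233 and 190 CPM in the wild type and at 220 and 241 CPM in the knockout, with a log2 fold change of 0.13 (SE 0.16). Psat1, the next step, stood at 512 and 515 CPM in the wild type and at 472 and 549 CPM in the knockout, with a log2 fold change of -0.01 (SE 0.17). Psph, the last step, stood at 35.1 and 40.3 CPM in the wild type and at 34.7 and 50.6 CPM in the knockout, with a log2 fold change of 0.18 (SE 0.20). For Psat1 and Psph the first knockout library was the lowest of the 4 and the second the highest. Psph shares 452 exon bases, 10.4% of its own, with the more abundant Cct6a on the opposite strand. Shmt2, which passes serine carbon to folate, and Aldh18a1, at the start of proline synthesis, had log2 fold changes of 0.01 (SE 0.16) and 0.02 (SE 0.17) with overlapping groups.

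Over the 8 enzymes, 7 fold changes lay above 0 and 1 below, with a median of 0.15. The second knockout library exceeded both wild type libraries for 6 of 8 enzymes, and it exceeded the first knockout library for 7 of 8. Against the mean of the wild type libraries, the median shift of the enzymes in log2 CPM was -0.03 in the first knockout library and 0.28 in the second. For the whole ATF4 arm the second knockout library was above both wild type libraries for 11 of 22 members and below both for 2, where 33.9% of all genes were above and 37.3% below. The first knockout library was above both for 6 and below both for 7, where 29.4% of all genes were above and 29.8% below.

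**Figure D3:**
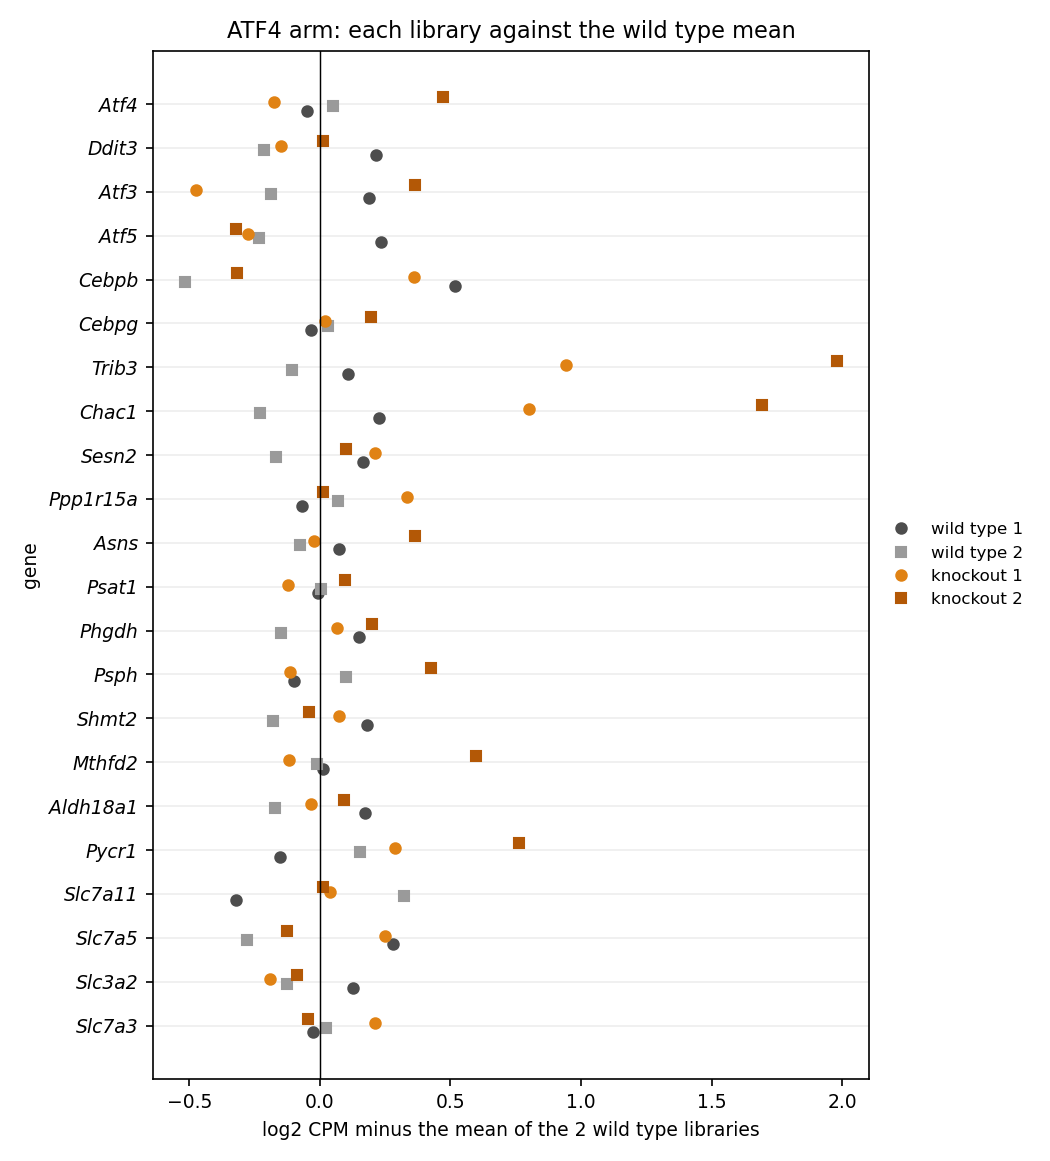
Log2 CPM of the 22 tested ATF4 arm members (vertical axis) in each library, minus the mean of the 2 wild type libraries (horizontal axis), with circles for replicate 1 and squares for replicate 2. The second knockout library (dark orange squares) lies to the right of both wild type points for 11 members, and Trib3 and Chac1 stand furthest from 0.

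Amino acid transporters of the arm showed no common direction. Slc3a2, the heavy chain shared by several amino acid carriers, stood at 73.3 and 61.4 CPM in the wild type and at 58.8 and 63.2 CPM in the knockout, with a log2 fold change of -0.14 (SE 0.15). Slc7a5, the leucine carrier that pairs with it, stood at 83.8 and 56.8 CPM in the wild type and at 82.0 and 63.2 CPM in the knockout, with a log2 fold change of 0.05 (SE 0.20). Slc7a3, a carrier of cationic amino acids, stood at 1.06 and 1.10 CPM in the wild type and at 1.27 and 1.04 CPM in the knockout, with a log2 fold change of 0.10 (SE 0.45). In all of these the groups overlapped, and for Slc7a5 the distance between the wild type libraries was larger than that between genotypes. Slc7a11, the cystine importer, had both knockout libraries, at 27.6 and 27.1 CPM, between the wild type libraries at 21.4 and 33.6 CPM.

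The abundant chaperones of the ER arm had fold changes near 0. Hspa5 stood at 357 and 374 CPM in the wild type and at 303 and 430 CPM in the knockout, so that the knockout libraries enclosed the wild type ones, with a log2 fold change of 0.00 (SE 0.19, 95% interval -0.43 to 0.44). Hsp90b1, the ER form of HSP90, stood at 332 and 433 CPM in the wild type and at 332 and 447 CPM in the knockout. Calr, the lectin chaperone calreticulin, stood at 299.8 and 371 CPM in the wild type and at 300.5 and 375 CPM in the knockout. For both genes the first libraries of each genotype matched closely and so did the second, and the log2 fold changes were 0.02 (SE 0.20) and 0.01 (SE 0.18). Hsp90b1 shares 10.3% of its exon bases with 1810014B01Rik.

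Among the folding factors with the smallest p, Dnajb9, a J-domain cofactor of BiP that restrains IRE1, stood at 17.3 and 18.0 CPM in the wild type and at 21.7 and 21.3 CPM in the knockout. Its groups lay apart and were each narrow, and the log2 fold change was 0.29 (SE 0.19, unadjusted p = 0.159). Creld2, a secreted disulphide isomerase, stood at 10.6 and 11.3 CPM in the wild type and at 8.81 and 8.81 CPM in the knockout, with a log2 fold change of -0.31 (SE 0.22, unadjusted p = 0.192). The groups of Creld2 lay apart in the opposite direction. Sdf2l1, a BiP cofactor, stood at 10.3 and 10.9 CPM in the wild type and at 10.1 and 15.9 CPM in the knockout, with a log2 fold change of 0.29 (SE 0.26) that came from the second knockout library alone: without that library it was -0.08. Dnajc3, another J-domain cofactor, had a log2 fold change of -0.12 (SE 0.14), with groups that did not overlap.

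Pdia4 and Pdia6, which form disulphide bonds, had log2 fold changes of -0.14 (SE 0.16) and -0.05 (SE 0.15). Hyou1, a nucleotide exchange factor for BiP, and Manf, a secreted ER stress factor, had -0.02 (SE 0.16) and -0.09 (SE 0.17). The groups of these 4 genes overlapped. Of the 11 chaperones and folding factors 5 had positive and 6 negative fold changes, with a median of -0.02. In the first knockout library 8 of the 11 lay below both wild type libraries. So did 9 of 17 members of the whole ER arm and 29.8% of all genes. The median shift of the 11 genes in log2 CPM was -0.17 in the first knockout library and 0.06 in the second. For the whole ER arm it was -0.10 in the first knockout library and -0.01 in the second.

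**Figure D4:**
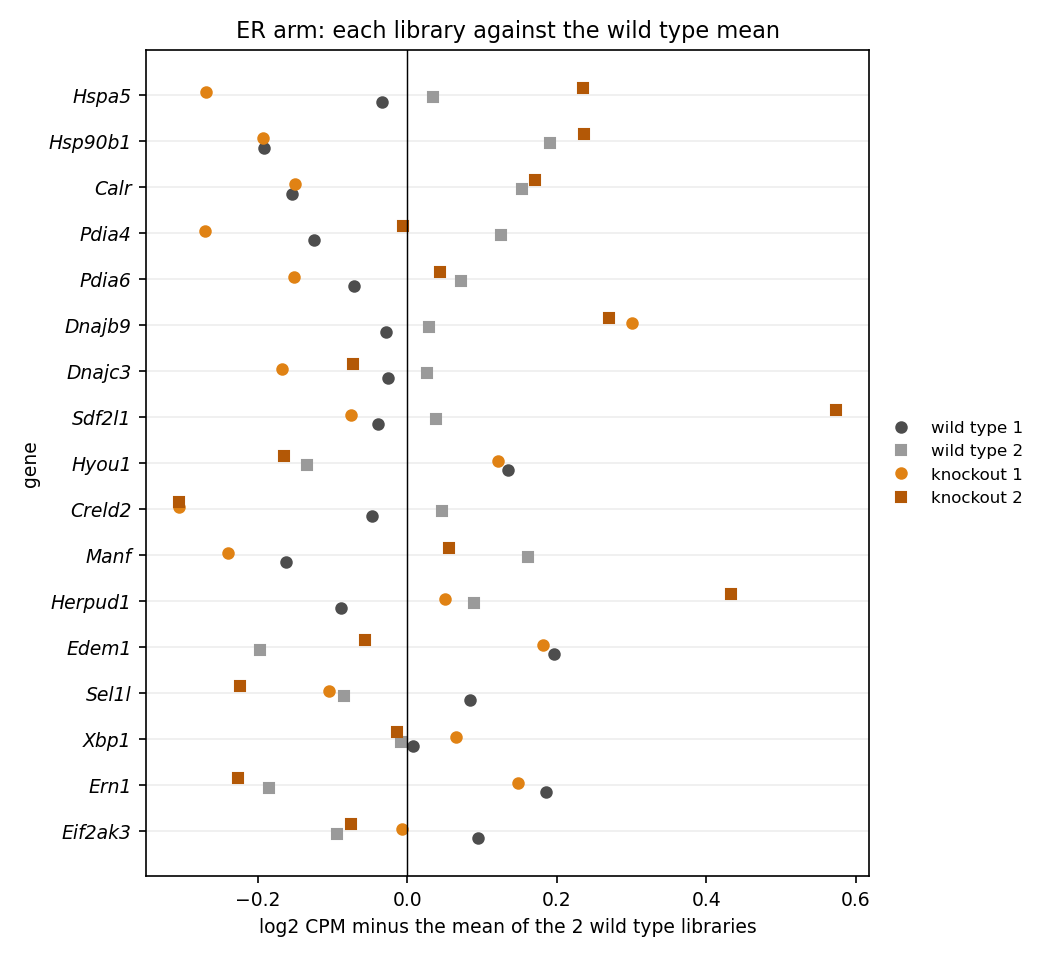
Log2 CPM of the 17 ER arm members (vertical axis) in each library, minus the mean of the 2 wild type libraries (horizontal axis), with circles for replicate 1 and squares for replicate 2. For Hsp90b1, Calr, Hyou1 and Ern1 the 2 circles lie together and the 2 squares lie together, whatever the genotype, while Dnajb9 and Creld2 have both knockout points on the same side.

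Genes of ER-associated degradation were close in both genotypes. Herpud1, a scaffold of the degradation complex, stood at 11.6 and 13.2 CPM in the wild type and at 12.8 and 16.7 CPM in the knockout, with a log2 fold change of 0.25 (SE 0.23). Sel1l, a core subunit of that complex, stood at 79.1 and 70.4 CPM in the wild type and at 69.4 and 63.9 CPM in the knockout, with a log2 fold change of -0.17 (SE 0.15). Edem1, which recognises glycoproteins for disposal, stood at 50.3 and 38.3 CPM in the wild type and at 49.8 and 42.2 CPM in the knockout, with a log2 fold change of 0.06 (SE 0.18). Only Sel1l of these had groups that did not overlap, and the margin between the nearest libraries was narrow.

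The sensors and Xbp1 had fold changes near 0 as well. Xbp1 stood at 28.6 and 28.3 CPM in the wild type and at 29.8 and 28.2 CPM in the knockout, with a log2 fold change of 0.03 (SE 0.17). Ern1, which encodes IRE1, stood at 15.3 and 11.8 CPM in the wild type and at 14.9 and 11.5 CPM in the knockout, with a log2 fold change of -0.04 (SE 0.24). Eif2ak3 stood at 29.1 and 25.5 CPM in the wild type and at 27.1 and 25.8 CPM in the knockout, with a log2 fold change of -0.04 (SE 0.18). The groups of all 3 genes overlapped.

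Differences between libraries of the same genotype mostly had the same sign in wild type and knockout for the ER arm, and for some genes the same size. Replicate 2 minus replicate 1, in log2 CPM, was 0.38 in the wild type and 0.43 in the knockout for Hsp90b1. For Manf the same difference was 0.32 and 0.30, and for Ern1 it was -0.37 and -0.37. The sign was the same in both genotypes for 15 of 17 ER arm members and for 10 of 22 ATF4 arm members, where 64.3% of all genes had the same sign. Among gene lists outside the set, described below, it was the same for 23 of 30 other ER genes, 9 of 12 NRF2 targets and 7 of 10 mitochondrial stress genes. It was the same for 6 of 11 cytosolic heat shock genes, 5 of 14 hypoxia genes and 3 of 12 aminoacyl tRNA synthetases. Across genes the correlation of the wild type with the knockout difference was r = 0.797 (Spearman's rho = 0.801, 17 genes) in the ER arm. It was r = 0.254 (rho = 0.239, 22 genes) in the ATF4 arm and r = 0.228 (rho = 0.316) over all genes tested. Genes are not independent replicates, the points share the same 4 libraries, and the labels do not say that a replicate number marks a shared culture or day.

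Among the members of the ATF4 arm with a wide difference in the knockout and a smaller one in the wild type were Trib3 (-0.21 in the wild type and 1.04 in the knockout), Chac1 (-0.46 and 0.89), Mthfd2 (-0.03 and 0.72) and Atf4 (0.10 and 0.65). In each of them the second knockout library was the highest of the 4. The ER arm held such genes too, with 0.08 in the wild type and 0.65 in the knockout for Sdf2l1, 0.07 and 0.50 for Hspa5, and 0.18 and 0.38 for Herpud1.

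**Figure D5:**
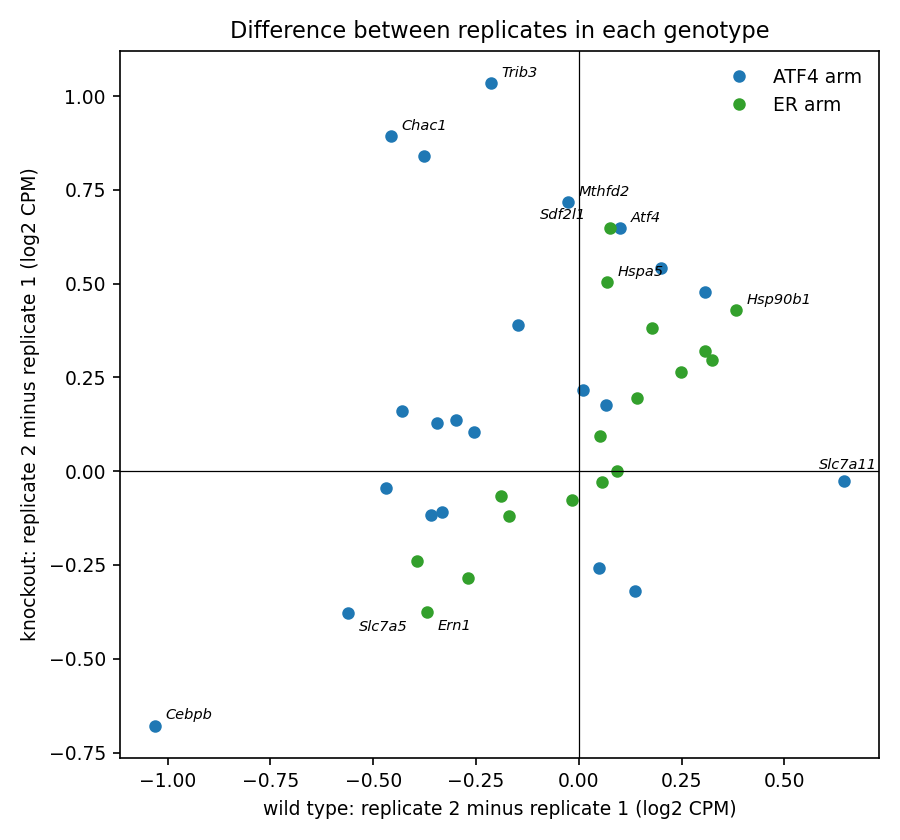
Difference between replicate 2 and replicate 1 in log2 CPM for the 39 tested members, in the wild type (horizontal axis) and in the knockout (vertical axis), with the ATF4 arm in blue and the ER arm in green. ER arm genes run along the diagonal, with 15 of 17 of the same sign, while Trib3, Chac1 and Mthfd2 lie at the upper left.

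Levels per length differed widely among the members. In the wild type the mean level was 121 CPM per kb for Psat1, 116 for Calr, 94.9 for Hsp90b1, 86.4 for Hspa5 and 85.0 for Phgdh. Atf4 stood at 49.3 CPM per kb, below Pdia4 at 66.5 and Pdia6 at 52.1. Among tested members the lowest levels were 0.13 CPM per kb for Trib3, 0.28 for Slc7a3, 0.37 for Atf3 and 0.59 for Chac1, Ddit3 had 2.56, and Nupr1, not tested, had 0.154. The members with the largest fold changes were therefore among those with the lowest levels, where counting error is widest.

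Related genes outside the set were read from 8 further lists, and 0 members of any list were called by edgeR. Aminoacyl tRNA synthetases, many of which ATF4 induces, had 10 of 12 positive fold changes with a median of 0.14, and the second knockout library exceeded both wild type libraries for 10 of 12. Over all genes tested 49.7% of fold changes were positive, and the second knockout library exceeded both wild type libraries for 33.9%. Yars, for tyrosine, stood at 75.3 and 66.1 CPM in the wild type and at 80.8 and 85.8 CPM in the knockout. None of the 12 reached an unadjusted p under 0.05. The median shift of this list in log2 CPM was -0.03 in the first knockout library and 0.24 in the second, close to the values of the ATF4 arm enzymes.

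Of 24 other ATF4 targets tested, 18 had positive and 6 negative fold changes, with a median of 0.07 and 1 gene in each direction at an unadjusted p under 0.05. Slc7a1, a carrier of cationic amino acids, stood at 70.3 and 53.9 CPM in the wild type and at 82.3 and 79.0 CPM in the knockout. Got1, the cytosolic aspartate aminotransferase, stood at 68.9 and 63.8 CPM in the wild type and at 57.3 and 36.2 CPM in the knockout. Their log2 fold changes were 0.38 (SE 0.16) and -0.50 (SE 0.21), in opposite directions and with groups that did not overlap. Of 17 further stress genes tested, which hold eIF2 kinases, subunits of eIF2 and eIF2B and other sensors and regulators such as Atf6, Ern2, Oma1 and Dele1, 9 fold changes lay above 0 and 8 below, with a median of 0.05.

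Of 30 other ER genes 22 had fold changes above 0 and 8 below, with a median of 0.06 and none at an unadjusted p under 0.05. Creb3l2, a membrane-bound transcription factor of the secretory pathway, stood at 11.0 and 12.2 CPM in the wild type and at 15.2 and 16.6 CPM in the knockout, with groups that did not overlap. Among 11 cytosolic heat shock genes tested 8 had fold changes above 0 and 3 below, with a median of 0.11. Cryab, a small heat shock protein, stood at 2.64 and 3.54 CPM in the wild type and at 1.42 and 1.37 CPM in the knockout, with a log2 fold change of -1.15 that reached an unadjusted p under 0.05. Mitochondrial stress genes (5 of 10 positive, median 0.01) and NRF2 targets (4 of 12 positive, median -0.04) lay near the centre of all genes.

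Hypoxia genes, too, were for the most part highest in the second knockout library. Of 14 tested, 12 had positive fold changes with a median of 0.25, where 49.7% of all genes were positive. By edgeR 4 reached an unadjusted p under 0.05, all higher in the knockout, where 1.15% of all genes did so. Their median shift in log2 CPM was 0.03 in the first knockout library and 0.46 in the second. The second exceeded both wild type libraries for 12 of 14, where 33.9% of all genes did so. It also did so for 8 of 11 cytosolic heat shock genes and 19 of 30 other ER genes. The same held for 14 of 24 other ATF4 targets and 6 of 10 mitochondrial stress genes. Lower numbers were found for the 17 further stress genes (6), the 12 NRF2 targets (3) and the 17 ER arm members (6). A high second knockout library was thus not particular to hypoxia genes or the ATF4 arm. Egln3, a prolyl hydroxylase of the HIF factors, stood at 15.3 and 14.8 CPM in the wild type and at 22.1 and 28.8 CPM in the knockout. Pfkl, a glycolytic enzyme, stood at 22.6 and 16.3 CPM in the wild type and at 28.0 and 50.9 CPM in the knockout. The part of hypoxia genes in the ATF4 arm values was not tested.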

How the data were processed

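The deposited values are whole-number counts of reads per gene, 1 file per library, made by the authors and not normalised. Reads were handled with STAR 2.7.10 and featureCounts on GRCm39, per the submitters' processing notes. Whether counting used strand, and how it treated reads matching several places, was not given in the sources used here, and the reads carry no stated molecular identifiers, so intervals cover the spread between libraries and counting error only.

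Symbols and exon lengths came from GENCODE M21, an annotation of an earlier build, matched by identifier without version for 52081 of 55414 genes. Where identifiers share a symbol, the identifier with the most counts was used. Genes were filtered with filterByExpr of edgeR 4.0.16 (R 4.3.3, minimum count 10), scaled by TMM and fitted with the quasi-likelihood test (robust=TRUE) over the 4 libraries, knockout against wild type. Benjamini-Hochberg adjustment ran over 19912 genes, and a gene was called under 0.05. Shifts are in log2 CPM with a prior count of 2. Simulated counts with known large changes, set only in genes with levels above those of Trib3 and Chac1, were used to check the fit. The check does not cover small changes or genes at such low levels. The libraries of a genotype differed by more than counting error, at chi-square values of 18.7 (wild type) and 29.5 (knockout) for each degree of freedom, so none was deposited in duplicate. The biological coefficient of variation was 16.5%.

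The members, lists and tests were chosen with earlier results of these data known. Values in every library are given for Atf4, Ddit3, Xbp1, Hspa5, Eif2ak3 and Ern1, for members at an unadjusted p under 0.05, for up to 3 members with the smallest p in each of 7 role groups and for up to 2 in each further list. Some other members whose values show the same or an opposite spread were chosen after their values were seen. Alternatives were DESeq2 1.42.0, limma-voom (limma 3.58.1), robust=FALSE, RLE and upper quartile scaling, no low-count filter, a filter of 1 CPM in 2 libraries, the replicate number as a block, a prior count of 0.5 and leaving out each library in turn. Counts of members at an unadjusted p or with a positive fold change were followed under these settings after seeing the data.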

Additional observations from a re-analysis of the deposited data

How the results depend on the processing

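Under all 12 alternative fits 0 members of either arm were called. The smallest adjusted p of a member was 0.141, for Chac1 without knockout replicate 1. The median log2 fold change of the ATF4 arm, 0.10, ran from 0.01 to 0.20 when each library was left out, and that of the ER arm, -0.02, from -0.11 to 0.030. Under the same fits the number of positive fold changes ran from 12 to 18 in the ATF4 arm and from 6 to 10 in the ER arm. The number of ATF4 arm members at an unadjusted p under 0.05 was 2, and 1 with the filter of 1 CPM, which removes Trib3. It ran from 0 (without knockout replicate 2) to 5 (without knockout replicate 1: Atf4, Trib3, Chac1, Mthfd2 and Pycr1), with 1 without wild type replicate 2. For the ER arm it ran from 0 to 1, with Sdf2l1 at that level without knockout replicate 1. A fit that leaves out a library assumes that the lone library of a genotype varies like the other pair.

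With the replicate block 0 members were called, 3 ATF4 arm members were at an unadjusted p under 0.05 (Pycr1 beside Trib3 and Chac1), the medians were 0.10 and -0.02, and 9 genes were called over all genes against 1 without it. Deviations of same-numbered libraries correlated at r = 0.228 over tested genes, with 2 pairs, and the labels do not say that the numbers pair the libraries. Over all genes 41 were called with no low-count filter, 6 by DESeq2, and 31, 17, 47 and 1 without wild type replicate 1, wild type replicate 2, knockout replicate 1 and knockout replicate 2.

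Of the 39 tested members 13 kept the sign of their fold change in every setting that tested them, Trib3, Chac1 and Pycr1 among them. Trib3 was not tested under the filter of 1 CPM. The sign changed for 26 members when some library was left out, 13 of them without knockout replicate 2. Outside those fits the sign turned for 5 members with values near 0. These were Atf3 (0.011 by DESeq2, 0.013 with RLE, 0.0054 with upper quartile scaling, 0.0084 with no filter), Cebpb (0.060 by limma-voom, 0.0058 with the block), Psat1 (0.0041 by DESeq2 and with RLE, 0.00094 with no filter), Slc7a11 (0.010 by limma-voom, 0.015 with the block) and Hspa5 (-0.016 by both limma-voom and the block). With each library left out in turn the log2 fold changes ran from -0.18 to 0.47 for Atf4, -0.28 to 0.15 for Ddit3, -0.56 to 0.41 for Atf3, -0.45 to 0.60 for Cebpb, -0.025 to 0.36 for Asns, -0.12 to 0.10 for Psat1, -0.0040 to 0.28 for Phgdh, -0.12 to 0.42 for Psph, -0.15 to 0.20 for Shmt2, -0.12 to 0.60 for Mthfd2, -0.13 to 0.20 for Aldh18a1, -0.30 to 0.36 for Slc7a11, -0.20 to 0.36 for Slc7a5 and -0.052 to 0.23 for Slc7a3. In the ER arm they ran from -0.27 to 0.23 for Hspa5, -0.20 to 0.24 for Hsp90b1, -0.16 to 0.19 for Calr, -0.28 to 0.0059 for Pdia4, -0.15 to 0.042 for Pdia6, -0.077 to 0.58 for Sdf2l1, -0.17 to 0.12 for Hyou1, -0.25 to 0.091 for Manf, -0.12 to 0.26 for Edem1, -0.013 to 0.066 for Xbp1, -0.24 to 0.16 for Ern1 and -0.12 to 0.054 for Eif2ak3. Among members that kept their sign, values ran from -0.52 to -0.063 for Atf5, 0.28 to 0.77 for Pycr1, 0.048 to 0.43 for Herpud1, -0.24 to -0.079 for Sel1l, -0.17 to -0.073 for Dnajc3, -0.25 to -0.010 for Slc3a2, 0.018 to 0.19 for Cebpg, 0.0014 to 0.32 for Sesn2 and 0.0090 to 0.34 for Ppp1r15a. The cause of these moves was not tested.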
